A study of Mus musculus with 9 samples.

Results

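The 5 imprinted genes H19, Igf2, Dlk1, Meg3 and Rasgrf1 were taken by name, with 35 kb on each side of every gene body, out of 34324 genes with bounds in the RefSeq table of assembly GRCm38.p6. H19 and Igf2 lie together on chromosome 7, Dlk1 and Meg3 on chromosome 12 and Rasgrf1 alone on chromosome 9, so the members make 3 domains. Methylation was read in consecutive tiles of 1000 bp, and 411 of the 1041809 tiles tested across autosomes and X fall in these domains. Of the 411, 63 read between 30 and 70% in the mean of the Control libraries and are called intermediate tiles here.

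CpG methylation had been measured by whole-genome bisulfite sequencing of DNA punched from the nucleus accumbens, a reward region of the ventral striatum, with 1 library for each of 9 male C57BL/6J mice. The labels place 5 libraries in a Control group (numbers 2, 3, 4, 5 and 8) and 4 in a Susceptible group (numbers 2, 3, 6 and 7). One protocol text, which describes mice aged 8 weeks and daily defeats by CD1 aggressors over 10 days, stands with every library, Control included, so the handling of Control mice and the scoring of susceptibility are unknown here. The comparison asks whether methylation differs between stress-susceptible and Control mice. A punch mixes neurons and glia, so a change of methylation within a cell type and a change in the mix of cells cannot be told apart. Windows at the ends of 10 neuron marker genes, such as Drd1, Drd2 and Ppp1r1b, read a median of 8.93% in Control, against 68.0% over all 36956 windows at gene ends, and those of glial marker genes read 14.1% for oligodendrocytes, 44.5% for astrocytes and 85.8% for microglia.

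In an imprinted domain the copies inherited from the mother and the father carry different methylation, and the difference sets which copy is transcribed. Most germline marks are methylated on the maternal copy. The domains of H19-Igf2, Dlk1-Meg3 and Rasgrf1 are the textbook cases of the opposite kind, in which sperm bring the methylation and the control region lies between or upstream of genes instead of over a promoter. At H19-Igf2 the insulator protein CTCF binds the unmethylated maternal control region, H19 is transcribed from the maternal copy and Igf2 from the paternal copy. Dlk1 is likewise expressed from the paternal copy and Meg3, a long noncoding RNA, from the maternal copy. Rasgrf1, a guanine nucleotide exchange factor that activates Ras proteins in neurons, is expressed mainly from the paternal copy in the neonatal brain. A locus with a single methylated copy is read at an intermediate level, because reads of both copies are pooled.

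RefSeq promoter windows matched 4 of the 5 genes, all but H19, with 8 windows. The 250 bases upstream of 4 start sites are printed 5′ to 3′ on the strand of the gene, with every CpG in capitals, because these are the cytosines whose levels follow. The start sites used for Dlk1, chr12:109452823, and Rasgrf1, chr9:89909775, lie inside the gene bounds, so these windows do too. The window of Meg3, chr12:109540746-109540995 on the plus strand, holds 10 CpGs.
Meg3: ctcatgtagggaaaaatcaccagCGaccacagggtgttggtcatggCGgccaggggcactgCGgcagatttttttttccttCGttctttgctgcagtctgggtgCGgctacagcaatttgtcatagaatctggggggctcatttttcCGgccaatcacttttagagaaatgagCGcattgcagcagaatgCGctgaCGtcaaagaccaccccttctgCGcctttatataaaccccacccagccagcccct
The window of Dlk1, chr12:109452573-109452822 on the plus strand, holds 8 CpGs.
Dlk1: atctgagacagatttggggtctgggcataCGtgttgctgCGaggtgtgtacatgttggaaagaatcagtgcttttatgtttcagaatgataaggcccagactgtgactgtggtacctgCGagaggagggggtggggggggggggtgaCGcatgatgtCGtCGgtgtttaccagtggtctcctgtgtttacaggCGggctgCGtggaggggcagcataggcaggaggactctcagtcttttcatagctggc
The window of Rasgrf1, chr9:89909525-89909774 on the plus strand, holds 21 CpGs.
Rasgrf1: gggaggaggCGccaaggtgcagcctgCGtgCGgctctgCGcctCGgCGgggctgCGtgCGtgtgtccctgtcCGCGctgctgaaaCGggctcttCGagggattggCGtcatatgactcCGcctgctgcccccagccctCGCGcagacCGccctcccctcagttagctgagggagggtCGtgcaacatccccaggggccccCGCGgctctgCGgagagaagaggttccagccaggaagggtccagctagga
A further window, of an inner start of Igf2, chr7:142658805-142659054 on the minus strand, holds 22 CpGs.
Igf2: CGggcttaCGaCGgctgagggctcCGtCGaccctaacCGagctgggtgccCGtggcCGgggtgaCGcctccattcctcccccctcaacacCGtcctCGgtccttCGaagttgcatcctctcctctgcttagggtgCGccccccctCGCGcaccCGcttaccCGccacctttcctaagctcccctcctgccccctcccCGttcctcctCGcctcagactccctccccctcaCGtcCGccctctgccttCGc
The files' coordinates were checked against these sequences: over 32619 RefSeq windows of 300 bases, which run 50 bases past the start, 396389 of 396389 listed positions fall on a CpG of the RefSeq sequence, and the median window holds 7 CpGs.

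The printed promoters of Meg3 and Dlk1 had intermediate means, and those of Rasgrf1 and Igf2 were near 0. The Meg3 window read 53.7% ± 34.5 (SD, n = 5) in Control libraries and 52.2% ± 15.9 (SD, n = 4) in Susceptible ones. Its Control values were 43.4, 57.7, 62.8, 100 and 4.69% in libraries 2, 3, 4, 5 and 8, and its Susceptible values were 65.0, 38.6, 38.3 and 67.0% in libraries 2, 3, 6 and 7. Control 5 and Control 8 thus lie at opposite ends of the scale, with 4 and 6 of the 10 CpGs listed, and the thinnest library has 43 calls. The Dlk1 window read 45.5% ± 21.9 (SD, n = 5) and 37.6% ± 9.79 (SD, n = 4), but its CpGs were mixed, with 2 at 30 to 70% in Control, 2 above and 2 below among the 6 of 8 that at least 3 Control libraries list. By contrast the Rasgrf1 window read 0.239% ± 0.535 (SD, n = 5) in Control libraries and 1.81% ± 1.01 (SD, n = 4) in Susceptible ones. Control 8 rests on 1 listed CpG there. The Igf2 window read 0.663% ± 0.665 (SD, n = 5) and 1.33% ± 0.892 (SD, n = 4). The Meg3 window contains the 8 letters tgaCGtca, the palindromic motif bound by CREB-family factors, which was searched on both strands and is held by 1.80% of all 32619 windows. The CpG inside it, at chr12:109540942 and 54 bp upstream of the start, was listed in 7 libraries and read a mean of 44.5% in Control and 52.1% in Susceptible. A match of letters is a description and not a binding site.

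The 63 intermediate tiles make 15.3% of the tiles tested in the domains, against 9.96% over all tiles tested. They are spread unevenly, with 8 of 120 tiles (6.67%) in the H19-Igf2 domain, 39 of 164 (23.8%) in the Dlk1-Meg3 domain and 16 of 127 (12.6%) in the Rasgrf1 domain. Per gene with its flanks, H19 had 6 of 67, Igf2 2 of 53, Dlk1 15 of 72, Meg3 24 of 92 and Rasgrf1 16 of 127. Meg3 is the member with the most inside its own gene body, 13 of 30, while H19 had 0 of 4. At the edges of the range, tiles of the Dlk1-Meg3 domain with Control means of 27.2 and 70.2% were left out, and others with 31.7 and 69.96% were kept. The first of these, chr12:109545001-109546000 in Meg3, had the largest difference of all 411 tested tiles, with 45.6, 51.2, 33.0, 6.03 and 0% in Control libraries 2, 3, 4, 5 and 8 and 43.3, 48.98, 53.6 and 38.6% in Susceptible libraries 2, 3, 6 and 7. Control 5 and Control 8 alone lie far below the Susceptible values there, and the difference of +18.98 points had an unadjusted p of 0.111 by the quasi-binomial model. It was +12.2 without Control 8 and +13.7 without Control 5.

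**Figure D1:**
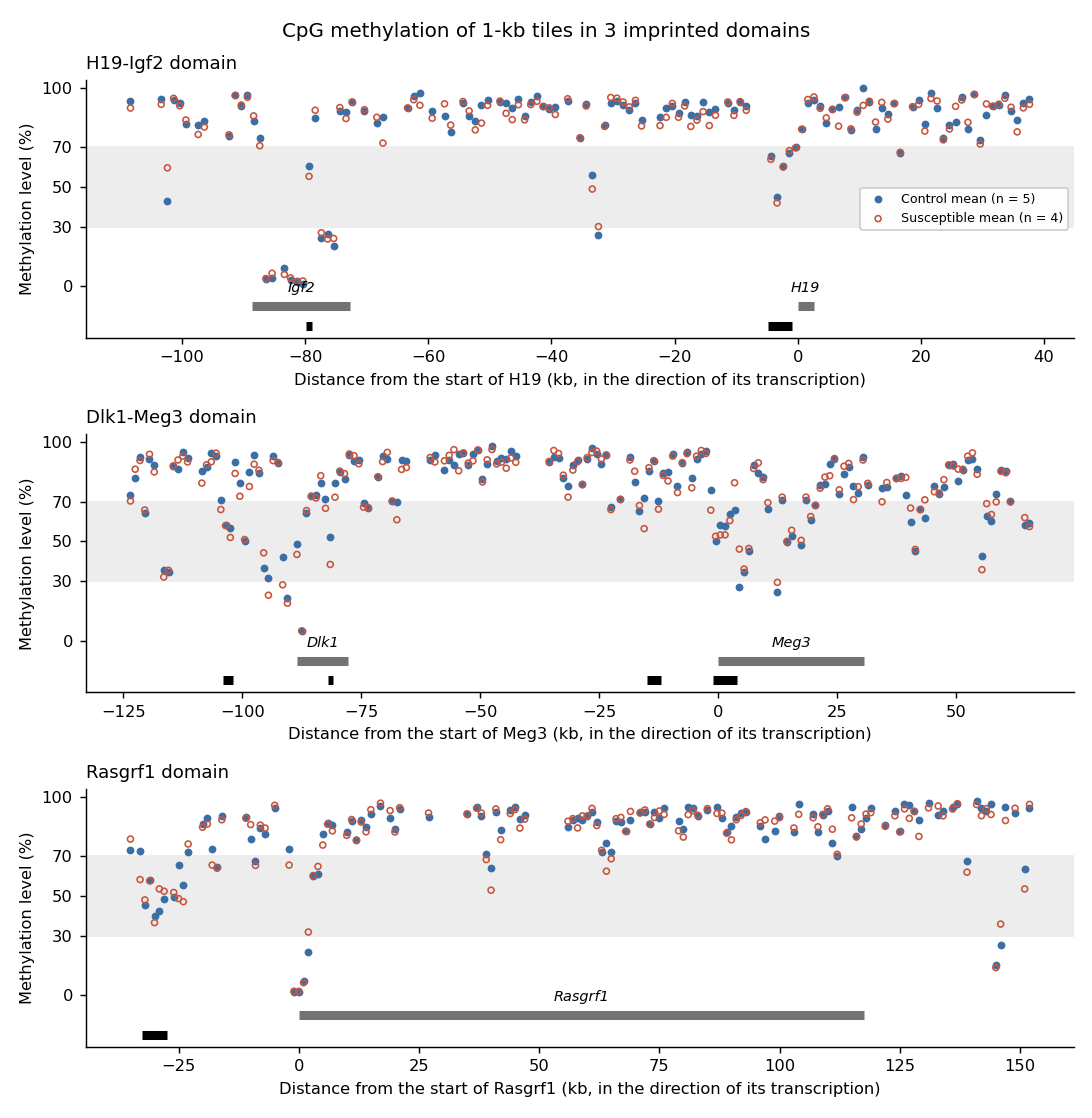
Methylation level (percent) of each 1-kb tile against the distance in kb from the start of H19, Meg3 or Rasgrf1, in the direction of transcription, as the mean of 5 Control (filled) and 4 Susceptible (open) libraries. Grey bars are genes, black bars the regions described by name and shading the range of 30 to 70%: 8, 39 and 16 tiles lie inside it by the Control mean in the 3 domains.

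The groups did not separate over these tiles. By a quasi-binomial model of the methylated and unmethylated calls with Benjamini-Hochberg adjustment over all tiles, 0 of 63 intermediate tiles passed an adjusted p of 0.05, where 0% of all tiles did, and the smallest adjusted p among them was 0.997. An unadjusted p under 0.05 was reached by 7 of 63, against 4.38% of all tiles and 9.67% of all tiles with a Control mean of 30 to 70%, and limma gave 0 of 63, against 3.25% of all tiles. The levels of the 2 groups did not overlap in 4 of 63, against 1.56% of all tiles and 1.73% of the intermediate ones. Susceptible was higher in 31 and lower in 32, where 47.6% of all tiles were higher, with a median difference of -0.00203 percentage points, from -16.9 to +16.7 among the 63. Over all 103732 tiles with a Control mean of 30 to 70%, chosen by the Control level alone in the same way, 62% were higher in Susceptible and the median difference was +2.16 points. In both sets the Control values enter the choice of tiles and also the difference. The direction can therefore depend on the choice, and its part was not tested. All 411 tested tiles of the domains gave 21 at an unadjusted p under 0.05 and 0 past the adjusted threshold.

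**Figure D2:**
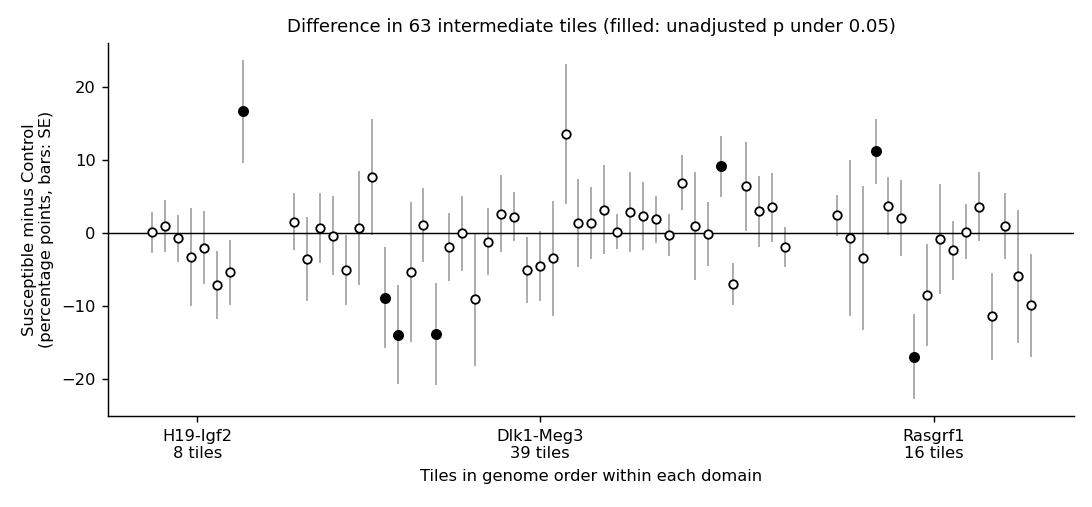
Susceptible minus Control difference (percentage points, with its standard error) of the 63 intermediate tiles in genome order within each domain. Filled points mark the 7 tiles with an unadjusted p under 0.05, and the differences run from -16.9 to +16.7 on both sides of 0.

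Control 5 and Control 8 stand apart, Susceptible 7 and Control 4 less so, and several results here rest on them. Where a CpG was listed on both strands, the strands of Control 5 and Control 8 disagreed 18.4 and 19.7 times as much as binomial counting gives, against 2.38 to 6.11 times in the other 7, Susceptible 7 included with 3.49. Over the 63 intermediate tiles, the mean distance of a library from the median of the 9 was 10.1 points in Control 5, 7.98 in Control 8, 7.06 in Susceptible 7 and between 2.95 and 7.04 in the others. Control 5, Susceptible 7 and Control 8 were the highest or lowest of the 9 in 26, 23 and 21 of these tiles, and the others in 3 to 14. Susceptible 7 also had the lowest median level, 53.0%, against 55.7 to 59.7% in the others. Listed calls ranged from 313475624 to 570984634 per library. The part of these differences in the group comparisons was not tested beyond the values given without these libraries.

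Next to H19, the tiles marked a stretch of intermediate methylation with close group means. Among runs of consecutive intermediate tiles outside the genes, the one with the most CpGs in this domain was chr7:142579001-142583000, with 90 CpGs over 4 tiles. It begins 855 bp from the bound of H19 (chr7:142575530-142578146), on the side of Igf2, whose gene lies 67768 bp away. This side is where the textbook places the control region of H19 and Igf2. The Control libraries 2, 3, 4, 5 and 8 read 54.4, 62.3, 55.7, 50.4 and 67.5%, and the Susceptible libraries 2, 3, 6 and 7 read 56.5, 58.1, 58.97 and 58.6%. All 4 Susceptible values fall inside the Control range. The means were 58.1% ± 6.82 (SD, n = 5) and 58.0% ± 1.08 (SD, n = 4), which gives a difference of -0.03 ± 3.10 points (SE; two-sided exact permutation p = 0.984). Without Control 5 and Control 8, the Control SD was 4.25 (n = 3) and the difference +0.56. With 2200 to 3798 calls per library, the widest 95% Wilson interval spanned 4.17 points, and it covers counting error only.

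Levels within the H19 run were not flat. Its 4 tiles, in the order of the coordinates, had Control means of 67.3, 60.7, 45.2 and 65.8%, so the lowest lay at chr7:142581001-142582000. In that tile Control values ran from 28.2% in Control 4 to 61.9% in Control 3, while the Susceptible values ran from 39.5 to 43.6%. Of 83 CpGs with a level in at least 3 Control libraries, 68 (81.9%) lay between 30 and 70%, 12 above and 3 below. The model was fitted to 36 CpGs of the run that were listed in all libraries, of which 2 had an unadjusted p under 0.05, against 8.09% of all CpGs tested, and 0 passed the adjusted threshold, as did 0% of all. The CpG with the smallest p, chr7:142579403, had a Control mean of 54.1% ± 12.9 (SD, n = 5) and a Susceptible mean of 75.9% ± 5.09 (SD, n = 4; quasi-binomial model, unadjusted p = 0.0134, adjusted p = 0.614).

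H19 itself, a long noncoding RNA, was highly methylated. Its gene body read 84.4% ± 3.28 (SD, n = 5) in Control libraries and 88.1% ± 2.67 (SD, n = 4) in Susceptible ones. The Control values 87.5, 85.4, 86.1, 79.0 and 84% overlapped the Susceptible values 89.7, 91.0, 86.6 and 85.2% (exact permutation p = 0.127). The difference of +3.73 points was +2.37 without Control 5, +1.79 without Control 5 and Control 8, and +1.46 with CpGs weighted equally. Within 1000 bp of its bound on the side of the intermediate run, at which transcription of H19 begins, the level was 71.5% ± 4.87 (SD, n = 5) and 71.1% ± 5.68 (SD, n = 4). The window at the opposite bound read 94.0% ± 1.41 (SD, n = 5) and 94.9% ± 1.31 (SD, n = 4).

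Igf2, the insulin-like growth factor 2 gene (chr7:142650768-142666816, minus strand), was mostly unmethylated inside its body. The body read 22.3% ± 1.73 (SD, n = 5) and 21.9% ± 0.685 (SD, n = 4), with values of 20.2, 23.8, 24.4, 21.5 and 21.7% in Control and 22.9, 21.9, 21.7 and 21.3% in Susceptible libraries (exact permutation p = 0.714). Its 4 RefSeq start sites differ: the window of the outermost one read 86.9%, the next 12.3% and the one printed above 0.663% in Control. The first of these values rests on 1 CpG with 12 to 58 calls, the second on 10 CpGs. The one intermediate tile in the body, chr7:142657001-142658000, covers the innermost start site. That tile read 60.7% ± 9.30 (SD, n = 5) and 55.3% ± 2.93 (SD, n = 4; exact permutation p = 0.310). Its difference, -5.36 points, was -2.77 without Control 4 and -8.41 without Control 8. Only 4 of its 14 CpGs were between 30 and 70%, with 5 above and 5 below. An intermediate tile can thus join methylated and unmethylated CpGs. Among the intermediate tiles of the H19-Igf2 domain, the one with both the smallest p and the largest difference, chr7:142680001-142681000, has 5 CpGs and read 42.9% ± 8.32 (SD, n = 5) and 59.6% ± 12.1 (SD, n = 4; quasi-binomial model, unadjusted p = 0.0387, adjusted p = 0.997). Its groups overlapped, and Susceptible 6 was the highest at 75.96%. Over all 120 tested tiles of the domain the smallest p was at chr7:142567001-142568000, with 4 CpGs, which read 100% in all 5 Control libraries and 91.3, 98.2, 79.1 and 95.8% in Susceptible libraries 2, 3, 6 and 7 (quasi-binomial model, unadjusted p = 0.0022, adjusted p = 0.997). The difference there was -8.91 points, and -4.91 without Susceptible 6.

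Upstream of Rasgrf1 there was a stretch of lower intermediate methylation, again close in the group means. The run chr9:89877001-89882000 holds 108 CpGs over 5 tiles and ends 27508 bp before the gene (chr9:89909508-90026979, plus strand), on the side where the known control region lies. Per library, 74 to 98 of its CpGs were listed, and only 2 to 14 on both strands. The pooled level lay closer to the reverse than to the forward level in every library. In Control 8 the pooled, reverse and forward levels were 28.4, 26.9 and 53.5%. Control libraries 2, 3, 4, 5 and 8 read 43.3, 47.6, 38.0, 58.9 and 28.4%, and Susceptible libraries 2, 3, 6 and 7 read 45.2, 47.5, 46.2 and 44.5%. Control 5 and Control 8 are the highest and the lowest of the 9, and the Susceptible values lie inside the Control range. The means were 43.3% ± 11.3 (SD, n = 5) and 45.8% ± 1.29 (SD, n = 4), which gives a difference of +2.58 ± 5.11 points (SE; exact permutation p = 0.651). Without Control 5 and Control 8, the Control SD was 4.84 (n = 3) and the difference +2.86. Restricted to CpGs that all 9 libraries list, it was -1.51. Other alternatives were larger, up to +8.83 on the forward strand, and it was +6.50 without Control 5.

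The 5 tiles of the Rasgrf1 run had Control means of 45.5, 58.2, 39.9, 42.3 and 48.6%. The Control libraries were spread most widely in a pair of them. At chr9:89879001-89880000, with 36 CpGs, Control 5 read 74.0% and Control 8 13.9%, and the other 7 libraries read 33.2 to 41.7%. At chr9:89878001-89879000, Control 4 read 32.4% and Control 8 83.7%. At chr9:89880001-89881000, Control values of 37.7, 42.7, 29.2, 51.0 and 50.9% stood against Susceptible values of 49.3, 56.1, 52.6 and 56.0%, a difference of +11.2 ± 4.43 points (SE; quasi-binomial model, unadjusted p = 0.0372, adjusted p = 0.997). The groups overlapped in that tile. Over the run, 70 of 84 CpGs (83.3%) lay between 30 and 70%, 13 below and 1 above. Of 41 CpGs fitted, 0 had an unadjusted p under 0.05, where 8.09% of all CpGs did, and the smallest p, 0.0536 by the quasi-binomial model, was at chr9:89880583 with 24.1% ± 14.3 (SD, n = 5) and 48.3% ± 12.9 (SD, n = 4).

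**Figure D3:**
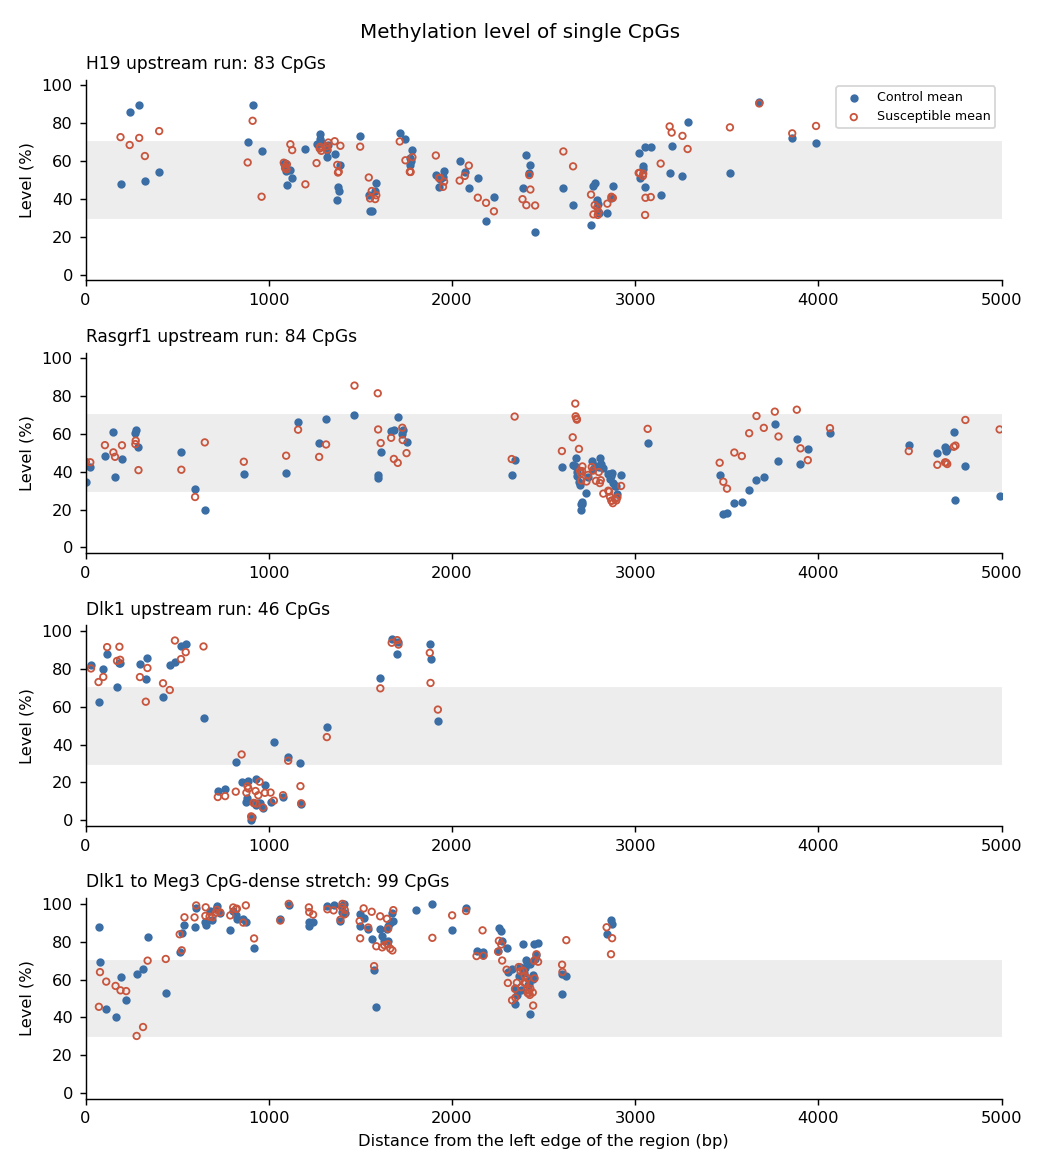
Mean methylation level (percent) of single CpGs in Control (filled) and Susceptible (open) libraries against the distance in bp from the left edge of 4 regions, for CpGs with a level in at least 3 Control libraries. In the runs upstream of H19 and of Rasgrf1, 68 of 83 and 70 of 84 CpGs lie in the shaded range of 30 to 70%, against 9 of 46 upstream of Dlk1 and 31 of 99 between Dlk1 and Meg3.

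Another intermediate stretch upstream of Rasgrf1 held the tile with the smallest p of all 127 tested in this domain and the largest difference of the 63. That tile, chr9:89884001-89885000 with 9 CpGs, read 53.6, 69.9, 58.8, 84.2 and 61.2% in Control libraries 2, 3, 4, 5 and 8. The Susceptible libraries 2, 3, 6 and 7 read 45.9, 52.6, 52.7 and 43.5%, all below every Control value, though Control 2 lay less than 1 point above. The means were 65.5% ± 11.99 (SD, n = 5) and 48.7% ± 4.69 (SD, n = 4), which gives a difference of -16.9 points (quasi-binomial model, unadjusted p = 0.00817, adjusted p = 0.997). Without Control 5, the highest library, the difference was -12.2. The whole run of 3 tiles, chr9:89883001-89886000, read 58.9% ± 9.75 (SD, n = 5) and 48.5% ± 5.57 (SD, n = 4), with overlapping groups. Its first tile went the other way, by +2.17 points.

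Rasgrf1 was unmethylated at its start and methylated over its body, and here the groups came apart slightly. The body, from chr9:89909508 to 90026979 with up to 1053 CpGs listed in a library, read 79.4, 79.6, 80.1, 79.6 and 80.2% in Control libraries 2, 3, 4, 5 and 8. It read 78.5, 78.1, 78.3 and 77.4% in Susceptible libraries 2, 3, 6 and 7. Every Susceptible value was below every Control value. The means were 79.8% ± 0.365 (SD, n = 5) and 78.1% ± 0.477 (SD, n = 4), which gives a difference of -1.72 ± 0.289 points (SE; exact permutation p = 0.00794, the smallest that 5 against 4 libraries can give). It was the only one of the 5 member gene bodies without overlap, and 1.61% of all 32372 gene bodies tested were without overlap. The quasi-binomial model gave it an unadjusted p of 0.00217 and an adjusted p of 0.993 over all gene bodies, of which 0% passed. By limma on the logit scale 0 gene bodies passed either, with 1347 at an unadjusted p under 0.05, against 1531 (4.73%) by the quasi-binomial model. Gene bodies as a whole leaned the same way, with 40.6% higher in Susceptible. Listed calls also separated the groups, with at most 430312082 in a Control and at least 432409939 in a Susceptible library, and their part in the result was not tested. Without Control 5 and Control 8 the difference was -1.65. Over the CpGs listed in all 9 libraries it was -1.21, with an exact permutation p of 0.0714.

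**Figure D4:**
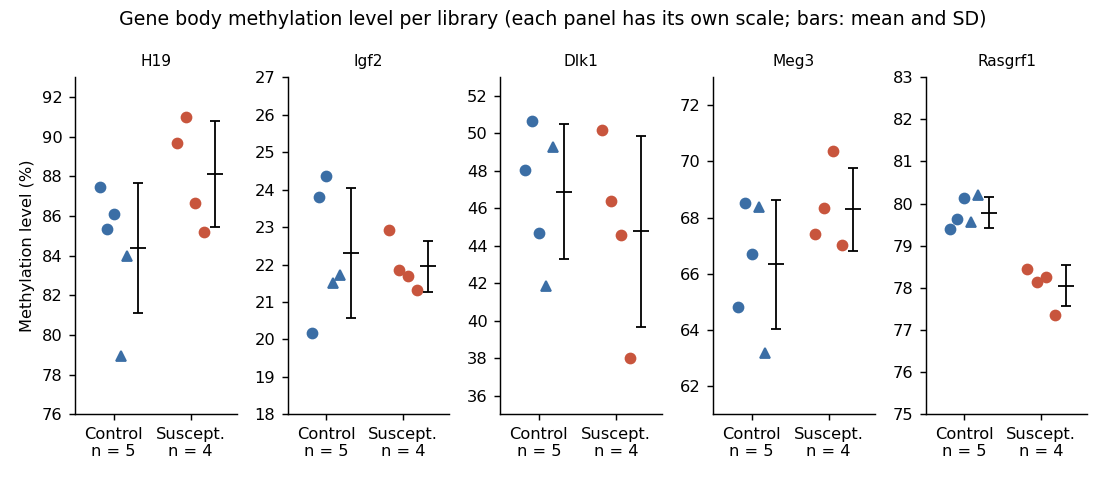
Methylation level (percent) of the body of each of the 5 genes, 1 point per library, with the mean and SD beside each group and Control 5 and Control 8 as triangles; each panel has its own range, which does not start at 0. The Rasgrf1 values run from 79.4 to 80.2% in Control and from 77.4 to 78.5% in Susceptible, and the groups overlap in the other 4 genes.

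Within 1000 bp of the Rasgrf1 start on either side, the level was 1.28% ± 0.382 (SD, n = 5) in Control libraries and 2.01% ± 0.145 (SD, n = 4) in Susceptible ones. The Control values were 1.24, 0.965, 1.13, 1.13 and 1.94% and the Susceptible values 1.95, 2.21, 1.87 and 1.997%, so that Control 8 alone reached the Susceptible range. All these levels lie near 0, and no measure of how fully the bisulfite treatment worked in each library was used here. The difference of +0.726 points had an exact permutation p of 0.0238, the smallest of 6 windows at the ends of member genes, of which the other 5 gave 0.365 to 0.929, and, by the quasi-binomial model, an unadjusted p of 0.0475 and an adjusted p of 0.979. Among all windows at gene ends 4.72% had an unadjusted p under 0.05 and 0% passed the adjusted threshold.

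The Dlk1-Meg3 domain had the most intermediate tiles, and its control region was not the run that the rule picked. The run outside the genes with the most CpGs was chr12:109437001-109439000, with 49 CpGs over 2 tiles, 13485 bp before Dlk1 (chr12:109452485-109463336, plus strand) and not between the genes. It read 54.6, 58.3, 53.3, 70.01 and 54.7% in Control and 60.4, 56.3, 63.4 and 46.3% in Susceptible libraries. The means of 58.2% ± 6.87 (SD, n = 5) and 56.6% ± 7.44 (SD, n = 4) differed by -1.57 ± 4.82 points (SE; exact permutation p = 0.746). Its CpGs were not intermediate one by one: 19 of 46 read above 70%, 18 below 30% and 9 (19.6%) in between. Methylated CpGs flank an unmethylated group in its first tile, as the plot of single CpGs shows. Of its 37 CpGs fitted, 1 had an unadjusted p under 0.05, where 8.09% of all CpGs did. It was chr12:109437645 with 54.1% ± 21.0 (SD, n = 5) and 91.9% ± 7.67 (SD, n = 4; quasi-binomial model, unadjusted p = 0.00105, adjusted p = 0.614).

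Between Dlk1 and Meg3, where the known control region lies, the stretch with the most CpGs read higher. The 3 consecutive tiles with the most CpGs there, a choice made after the runs had been seen, were chr12:109526001-109529000 with 101 CpGs, ending 11996 bp before Meg3. They read 79.3, 79.9, 85.0, 76.8 and 77.2% in Control and 81.3, 82.2, 76.1 and 75.9% in Susceptible libraries. The groups overlapped, with means of 79.6% ± 3.28 (SD, n = 5) and 78.9% ± 3.38 (SD, n = 4; exact permutation p = 0.786). The tiles differed from each other, with Control means of 85.4, 90.4 and 70.6%. In the last, chr12:109528001-109529000, 21 of 40 CpGs lay between 30 and 70% and 19 above, against 2 of 30 in the middle tile. That last tile missed the upper limit of 70% narrowly. Its Susceptible mean was 66.2% ± 11.3 (SD, n = 4), with 76.7, 74.2, 61.7 and 52.4% in libraries 2, 3, 6 and 7.

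**Figure D5:**
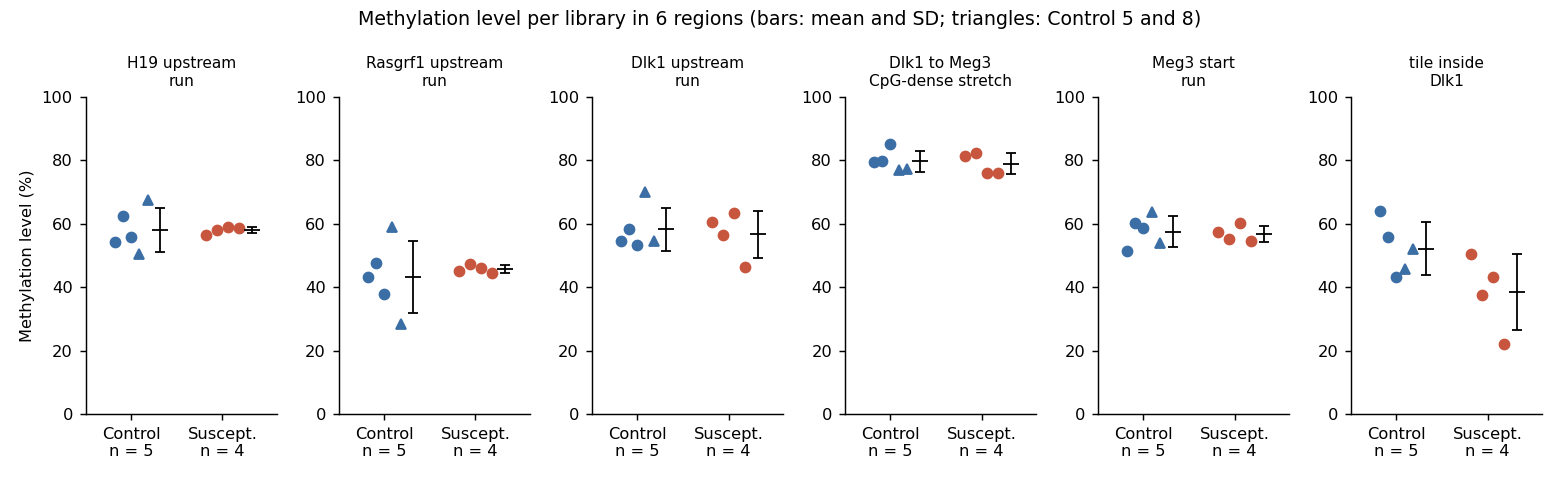
Methylation level (percent) of 6 regions, 1 point per library, for 5 Control and 4 Susceptible libraries, with the mean and SD beside each group and Control 5 and Control 8 as triangles. Group means lie within 3 points of each other in the first 5 regions, and the tile inside Dlk1 reads 52.2% against 38.4% with overlapping groups.

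Dlk1, a transmembrane protein of the Delta-Notch family that restrains differentiation, had a low start and a body of mixed level, in which 3 of 12 tested tiles were intermediate. The whole body read 48.0, 50.6, 44.7, 41.9 and 49.3% in Control and 50.2, 46.4, 44.5 and 38.0% in Susceptible libraries. The means were 46.9% ± 3.58 (SD, n = 5) and 44.8% ± 5.09 (SD, n = 4; exact permutation p = 0.476), and without Susceptible 7, the lowest, the difference turned to +0.132. Within 1000 bp on either side of the gene bound at the start, the level was 15.2% ± 5.62 (SD, n = 5) and 15.5% ± 3.998 (SD, n = 4). This wider stretch includes the printed promoter window, which read higher. The intermediate tile inside the gene with the most CpGs, 42 at chr12:109459001-109460000, had the smallest p among the intermediate tiles of the domain. It read 63.9, 55.9, 43.2, 45.7 and 52.1% in Control and 50.3, 37.6, 43.4 and 22.3% in Susceptible libraries. Susceptible 3 and Susceptible 7 lie below all Control values, and the other Susceptible values lie inside the Control range. The difference was -13.8 ± 7.03 points (SE; exact permutation p = 0.0794; quasi-binomial model, unadjusted p = 0.009, adjusted p = 0.997), and without Susceptible 7 it was -8.39. On the forward strand alone it was -25.5 (exact permutation p = 0.0476) and on the reverse strand -11.9 (exact permutation p = 0.0873). The strands were far apart in Control 5, with 72.1% forward and 43.2% reverse, and in Control 8, with 76.7 and 47.4%. Without Control 5 and Control 8 the difference over both strands was -15.9 points (exact permutation p = 0.143). In this tile 28 of 31 CpGs fitted were lower in Susceptible, where 46.9% of all CpGs were higher, and 7 had an unadjusted p under 0.05, against 8.09% of all CpGs. Neighbouring CpGs share reads and are not independent. The intermediate tile of this domain with the largest difference, chr12:109449001-109450000, lies upstream of Dlk1 and read 35, 34.98, 37.8, 66.1 and 36.2% in Control and 32.4, 34.4, 22.5 and 23.2% in Susceptible libraries. Its groups did not overlap, its difference was -13.9 points with Control 5 far above the other Control libraries and -7.85 without it, and only 2 of its 14 CpGs lay between 30 and 70%.

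Meg3 (chr12:109540996-109571729, plus strand) was intermediate over its start. A run of 5 tiles with 117 CpGs, chr12:109540001-109545000, covers the printed promoter and the first part of the gene. Control libraries 2, 3, 4, 5 and 8 read 51.3, 60.2, 58.6, 63.8 and 53.9%, and Susceptible libraries 2, 3, 6 and 7 read 57.2, 55.1, 60.1 and 54.4%, all inside the Control range. The means were 57.6% ± 4.97 (SD, n = 5) and 56.7% ± 2.56 (SD, n = 4; exact permutation p = 0.746). Of 107 CpGs, 70 (65.4%) lay between 30 and 70%, 28 above and 9 below. Its 5 tiles, in the order of the coordinates, had Control means of 50.3, 58.2, 57.8, 63.9 and 65.9% and Susceptible means of 52.6, 53.3, 53.3, 60.5 and 79.6%. The last of them, chr12:109544001-109545000 with 9 CpGs, read 32.6% in Control 5 and 67.5 to 91.3% in the other 8 libraries. Directly before the run, chr12:109539001-109540000 had the smallest p of all 164 tested tiles of the domain and lay above the range. It read 69.9, 85, 65.8, 78.6 and 79.9% in Control and 66.1, 68.6, 61.2 and 67.2% in Susceptible libraries, with overlapping groups (quasi-binomial model, unadjusted p = 0.00357, adjusted p = 0.997). The whole gene body read 66.3% ± 2.31 (SD, n = 5) and 68.3% ± 1.48 (SD, n = 4; exact permutation p = 0.206). Of the 2 other intermediate tiles of this domain whose groups did not overlap, both over Rtl1, a retrotransposon-derived gene that the paternal copy expresses, chr12:109584001-109585000 read 68.0, 67.9, 45.7, 64.1 and 62.97% in Control and 69.2, 70.9, 72.3 and 71.4% in Susceptible libraries. Control 4 was far below the rest, and the difference between the means of 61.7% ± 9.25 (SD, n = 5) and 70.9% ± 1.31 (SD, n = 4) fell from 9.21 to 5.20 points without it. The other, chr12:109596001-109597000, read 42.8% ± 3.59 (SD, n = 5) and 35.8% ± 4.74 (SD, n = 4). Their unadjusted p-values by the quasi-binomial model were 0.0154 and 0.209. The first of these tiles belongs to a run of 4 intermediate tiles, chr12:109581001-109585000 with 46 CpGs, that read 59.8, 56.8, 58.2, 57.95 and 59.2% in Control and 61.0, 60.6, 67.0 and 66.8% in Susceptible libraries. Every Susceptible value of the run was above every Control value, and the means were 58.4% ± 1.15 (SD, n = 5) and 63.9% ± 3.56 (SD, n = 4). Of the 36 runs of the 3 domains, single tiles included, 2 were without overlap, against 1.77% of all 85999 such runs, and of the 15 runs of at least 2 tiles this one was, against 2.13% of all. It was chosen for this pattern and not tested.

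The runs upstream of H19 and of Rasgrf1 had similar shares of CpGs at 30 to 70%, and the remaining CpGs lay mostly above that range at H19 and mostly below it at Rasgrf1. The H19 run read higher than the Rasgrf1 run in 8 of 9 libraries, by a mean of 13.7 ± 12.2 points (SD, n = 9), and Control 5 was the exception. The runs also differ in the strands read, with 19 to 56 CpGs per library listed on both strands at H19 and 2 to 14 at Rasgrf1. Over the 10 tiles of the 3 runs outside genes with at least 10 CpGs with a level, the median share of CpGs at 30 to 70% was 81.5%. It was 60% over 43 such intermediate tiles of the domains and 45.5% over 54023 intermediate tiles elsewhere. The median SD between the CpGs of a tile was 12.6, 18.1 and 24.1 points in the same order. The first set includes the 2 tiles of the run upstream of Dlk1, and its shares went down to 12.5%. These are descriptions of sets chosen by their level, and their difference was not tested.

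Maternal marks were read near genes such as Peg3, Snrpn and Kcnq1ot1, as the run of intermediate tiles with the most CpGs in the gene or within 5 kb of it. Unlike the runs outside genes, these may cover gene starts. A run was found for 16 of 17 genes, with Control means of 48.2 to 65.3% and a median of 55.2%. The H19 run, at 58.1%, lies inside that range and the Rasgrf1 run, at 43.3%, below it. The share of CpGs at 30 to 70% was 64.0 to 90.3% in the maternal runs, a range that holds the H19, Rasgrf1 and Meg3 runs and leaves out the run upstream of Dlk1. All these runs were chosen by Control means of 30 to 70%. That choice bounds their levels and favours such shares, so the likeness is a description and was not tested. The SD over the 9 libraries was 2.18 to 8.89 points there, against 4.87 in the H19 run, 8.16 in the Rasgrf1 run and 3.88 in the Meg3 run. Group differences in the maternal runs went from -4.80 to +6.04 points. Groups were without overlap in 0 of 16, against 2.13% of all runs of at least 2 intermediate tiles, and 16 runs are too few to tell these shares apart. Zdbf2, a further gene with a paternal mark, had a run at chr1:63263001-63271000 that read 51.8% ± 6.56 (SD, n = 5) in Control.

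Neighbouring genes of the domains were read at their ends, and none of their windows passed. Of the 24 windows tested for 17 genes around H19-Igf2, 4 read 30 to 70% in Control, against 11.1% of all windows at gene ends. They belong to Kcnq1ot1, a paternally expressed noncoding RNA, at 62.0%, to both ends of Cdkn1c, a maternally expressed cell cycle inhibitor, at 52.0 and 44.5%, and to Lsp1 at 60.8%. Kcnq1ot1 is also on the list of maternal marks. Its run there, chr7:143294001-143297000, lies past the window of Igf2, which ends at chr7:142701816. The list of neighbours thus reaches a locus with another mark, and its windows are not read as part of the H19-Igf2 control region. Around Dlk1-Meg3 it was 2 of 13 windows for 10 genes, at Rtl1 with 59.5% and Rian, a maternally expressed noncoding RNA, with 69.6%. For the Rasgrf1 list it was 0 of 8 windows for 6 genes. Chrnb4, 1 of the 6, lies elsewhere on chromosome 9 and is no neighbour, and without it the count is 0 of 7. An unadjusted p under 0.05 was reached by 0 of these windows in each of the 3 lists and by 4.72% of all windows. Median differences were +0.167, +0.707 and +0.165 points (+0.146 without Chrnb4), against -0.112 over all windows.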

How the data were processed

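Whole-genome bisulfite libraries of 9 nucleus accumbens samples were analysed, made with a low-input kit per the labels. The submitters' processing notes name Bismark, Bowtie and Picard and the build mm10, without versions or settings. The deposited files list cytosines of CpGs by strand, each with the count of its calls and the percent of them that were C or T, per the file headers. Every listed cytosine had at least 10 calls, so shallower ones are not seen, and the authors' percent times the count gave whole methylated calls within 0.005 percentage points. From these, strands were added per CpG, giving 18974412 CpGs on autosomes and X in any library and 5818940 in all 9. Calls were summed in tiles of 1000 bp, gene bodies and gene ends if each library had 3 or more CpGs and 20 or more calls there. A level is methylated over all calls.

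A quasi-binomial logistic model with dispersion moderated by the formulas of limma and kept at 1 or more was fitted to each whole table, with Benjamini-Hochberg adjustment and a threshold of 0.05.  Single values per library were compared by two-sided exact permutation tests, over 7 regions, 5 gene bodies and 6 windows at gene ends, unadjusted. Alternatives were limma 3.58.1 in R 4.3.3, other minimums, single strands, libraries left out and other limits of level. Python 3.11.15 with numpy 2.4.6 and scipy 1.17.1 did the rest. The text names the 5 genes, tiles of the runs in full, and per domain the tile of smallest p and of largest difference among intermediate and among all tested tiles. Tiles without overlap, the tile directly before the stretch between Dlk1 and Meg3 and the run over Rtl1 were named after their values were seen. Members, lists and tests were chosen with earlier results of these data known. Gene bounds and promoter sequences are RefSeq's, assembly GRCm38.p6, the same build as mm10. Nothing says more of how the mice were handled. The p-values set a group difference against the spread between these samples, and they cannot tell susceptibility apart from handling that differed between the groups.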

Additional observations from a re-analysis of the deposited data

Results flagged for a closer look

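In 2 of 58 groups of 4 or 5 libraries, 1 library lay far from the others by Dixon's criterion, which chance meets in about 1 of 20 groups. In the window around the Rasgrf1 start, Control 8 read 1.94%, and the nearest Control library read 1.24%. In the tile chr9:89878001-89879000 of the Rasgrf1 upstream run, Susceptible 7 read 47.1%, and the nearest Susceptible library read 60.2%.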

How the results depend on the processing

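No gene body and no single CpG passed the adjusted threshold under any alternative run. Tiles and gene ends gave 0 with all libraries, by the quasi-binomial model and by limma, with 45605 tiles and 1744 gene ends at an unadjusted p under 0.05 by the former and 33856 and 1391 by the latter. They gave 0 to 1 with 1 library left out: 1 tile without Control 4, and 1 gene end without Control 4 or without Susceptible 7. The small differences of the regions changed sign easily, and the cause was not tested. The H19 run, at -0.03 points, became 0.121 over CpGs listed in all 9 libraries, 0.56 without Control 5 and Control 8, 1.86 on the forward strand and 0.564 without the most covered 0.1% of CpGs, and -1.96 to 2.34 with 1 library left out. Picked again from tiles of 40 to 60%, it kept only chr7:142581001-142582000, at -3.24, the lowest of its alternatives. The run upstream of Dlk1 became 1.21 without Control 5 and Control 8 and 3.82 on the forward but -7.15 on the reverse strand (-3.83 to 1.86 with 1 library left out). The Rasgrf1 run became -1.51 over CpGs in all libraries and -0.375 with at least 20 calls per CpG (-1.13 to 6.50 with 1 library left out). It was larger with CpGs weighted equally (5.24) and on the forward strand (8.83), though few of its CpGs were listed on both strands. Picked again from tiles of 40 to 60%, the run was another, smaller stretch, which differed by 7.81 (exact permutation p = 0.0714). The stretch between Dlk1 and Meg3, at -0.748, became 1.77 on the reverse strand and -2.51 without Control 5 and Control 8, and its lowest alternative was -2.89 (-1.87 to 0.594 with 1 library left out). The Meg3 run became 0.0249 without Control 5 and Control 8 (-2.40 to 0.721 with 1 library left out). The tile inside Dlk1 had an unadjusted p under 0.05 on the forward strand alone, at -25.5 points (exact permutation p = 0.0476). It was -15.9 without Control 5 and Control 8 (exact permutation p = 0.143), whose strands were far apart there. It kept its sign with 1 library left out (-17.7 to -8.39), as did the Igf2 tile (-8.41 to -2.77). The Igf2 body, at -0.365, became 0.260 over CpGs in all libraries, and its lowest alternative was -1.11 (-0.898 to 0.149 with 1 library left out). With 1 library left out the Dlk1 body ran from -3.93 to 0.132, the H19 body from 2.37 to 4.70 and the Meg3 body from 1.18 to 2.51. The H19 body, at 3.73, was 1.46 with CpGs weighted equally and 1.79 without Control 5 and Control 8. The Rasgrf1 body kept its sign (-1.86 to -1.49 with 1 library left out) and missed the threshold over CpGs in all libraries (-1.21, exact permutation p = 0.0714). The 63 intermediate tiles became 28 with limits of 40 to 60% and 129 with 20 to 80%. Of the 63, 7 had an unadjusted p under 0.05, 3 without moderation, 4 without Control 5 and Control 8, 0 by limma and 4 to 9 with 1 library left out.

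Control and Susceptible share only the replicate numbers 2 and 3. Correlations of the deviations of same-numbered libraries were 0.00388 and -0.00969, inside the range of -0.041 to 0.0651 for different numbers. So few pairs, with all correlations near 0, cannot tell whether the numbers pair the mice. With the replicate block, taken as the mean difference within the numbers 2 and 3, the run upstream of Dlk1 became 1.92, the stretch between Dlk1 and Meg3 2.20, the Meg3 run 0.443, the Igf2 tile 0.129, the Igf2 body 0.394 and the Rasgrf1 body -1.21. By limma with the replicate block 0 tiles, gene bodies, gene ends and CpGs passed, and 0 of the 63 tiles had an unadjusted p under 0.05.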

Other observations

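Among the genes next to maternal marks, 13 of 17 windows at gene ends read 30 to 70% in Control, against 11.1% of all windows, and 2 had an unadjusted p under 0.05, against 4.72%. The window at the start of Peg3, a paternally expressed zinc finger gene, read 55.2, 55.9, 54.9, 59.1 and 63.2% in Control and 48.3, 44.9, 54.4 and 53.0% in Susceptible libraries. Its groups did not overlap, as in 1.8% of all windows, and its difference was -7.52 ± 2.68 points (SE; quasi-binomial model, unadjusted p = 0.00407, adjusted p = 0.979). The longer intermediate run around that start overlapped between the groups, at 55.8% ± 2.49 (SD, n = 5) and 51.7% ± 4.99 (SD, n = 4). At the start of Plagl1, also a zinc finger gene, the window read 51.3% ± 3.72 (SD, n = 5) and 57.3% ± 4.38 (SD, n = 4; quasi-binomial model, unadjusted p = 0.00918, adjusted p = 0.979), the opposite direction. Windows of 6 astrocyte marker genes read a median of 44.5% in Control and 40.7% in Susceptible, lower in 6 of 6, where 52.8% of all windows were lower, and with 0 at an unadjusted p under 0.05. Susceptible 7 was the lowest library in all 6, and without it 4 of 6 were lower. Windows of microglia markers were lower in 6 of 8, with and without Susceptible 7 (median difference -1.65 points), those of neuron markers in 7 of 13 and those of oligodendrocyte markers in 4 of 11.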
